A study of Drosophila melanogaster with 12 samples.

Results

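Heads of flies collected in the light were compared with heads collected at the same hours of the following day in constant darkness. The comparison uses 6 of the 12 arrays of a time course in adult Drosophila melanogaster, chosen by clock time. The light group (LD) holds ZT4, ZT8 and ZT12, where Zeitgeber time (ZT) counts hours since lights-on in a cycle of 12 h of light and 12 h of dark. The dark group (DD) holds CT4, CT8 and CT12, where circadian time (CT) counts hours since the moment lights would have come on. The other 6 arrays, at 16, 20 and 24 h on both days, are used here only to estimate scatter and to ask whether a daytime difference was also there at night. Flies of both groups carried the yellow and white mutations (y w), had the same 3 days of entrainment in light and dark, and were sampled as pools of heads separated on sieves from frozen bodies. The white mutation removes the screening pigments of the eye, so their photoreceptors lack the usual shielding. The labels give no sex and no exact age.

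Each hour of each day has 1 array, so the 3 values of a group are different hours and not repeats of 1 hour. Arrays were therefore compared in pairs of the same clock time, and every difference below is LD minus DD on the log2 scale. The DD day always came after the LD day, so darkness cannot be told apart from the day of collection or from 1 more day of age. ZT12 is the hour at which the lights went off, and the 12 h pair therefore closes the light phase. Standard errors measure how far single arrays fell from the model, and they mix differences between flies with technical ones.

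Light reaches the transcripts of a fly head along several routes. Photoreceptors signal through rhodopsin, a G protein and the TRP channels. Cryptochrome in clock neurons, photoreceptors and other cells makes light degrade the TIM protein, which resets the circadian clock; in constant darkness the clock runs on without that input. Light also sets when flies are active, feed and rest, and the fat body of the head, a tissue with liver-like functions, changes its transcripts with feeding.

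The arrays held the tissue they were labelled as. The photoreceptor arrestin gene Arr2 lay between 11.75 and 12.41 and the channel gene trp between 9.09 and 10.15, with the median probe set of an array at 4.93 to 4.96. The synaptic genes nSyb and brp lay between 4.99 and 6.19, whereas the neuronal marker elav was low on all 6 arrays, at 2.98 to 3.69. The rhodopsin gene ninaE, norpA and Mhc were not analysed here. The 6 arrays correlated with one another at 0.963 to 0.993, and no pair held identical values.

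ZT4 and CT12 stood apart in quality. The signal of the 3′ probe sets of the control transcripts exceeded that of their 5′ probe sets by 3.12, 1.91 and 1.86 at ZT4, ZT8 and ZT12, against 2.64, 1.69 and 3.46 at CT4, CT8 and CT12. Night arrays had 1.79 to 2.20. The 8 h pair is the one pair in which both arrays were low on this measure, and it is given beside each of the 33 genes of the main result as the value without ZT4 and CT12.

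Markers of tissues from outside the head differed between the arrays too. The mean level of 21 thoracic muscle markers, relative to the mean of all 12 arrays, was −0.55, −0.36 and −0.09 in LD, against 0.11, 0.50 and 0.76 in DD, so the groups did not overlap. The mean of 27 midgut markers was −0.25, 0.02 and 1.09 in LD, against 0.56, 0.09 and 0.94 in DD. The mean of 23 markers of the male accessory gland and testis was −0.01, −0.06 and 0.06 in LD, against 0.64, −0.15 and 1.33 in DD. Conversely, 12 fat body markers averaged 0.07, 0.18 and 0.17 in LD, against −0.13, −0.48 and −0.50 in DD. The part of these shifts in the gene results below was not tested beyond the alternatives given with them.

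**Figure D1:**
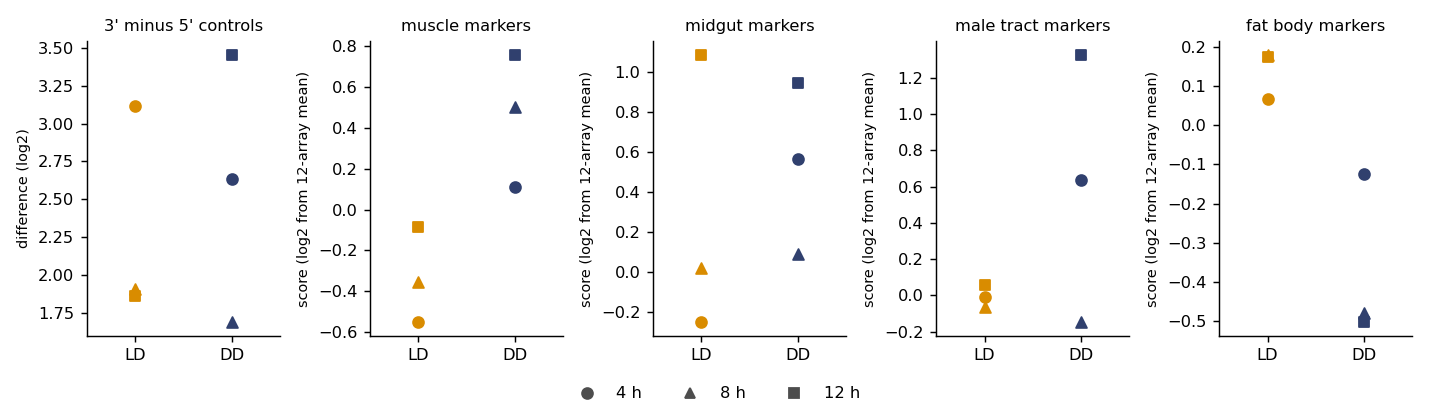
Quality and tissue marker levels of the 6 daytime arrays, LD left of DD, with the hour shown by the symbol. The first panel gives the difference between 3′ and 5′ control probe sets (log2), highest at CT12 (3.46) and ZT4 (3.12); the other panels give mean marker levels (log2 relative to the 12-array mean), and the muscle and fat body panels show no overlap between LD and DD.

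Few transcripts separated the groups beyond the scatter. With limma and Benjamini-Hochberg adjustment over 13966 probe sets, 1 probe set (0.00716%) passed at an adjusted p of 0.05, and it belongs to Act88F, the actin of the indirect flight muscles, which was lower in LD. Before adjustment 1069 probe sets had a p under 0.05, where 698 are expected by chance. Among genes these were 400 higher in LD (3.69%) and 466 higher in DD (4.3%). The excess depended on the night arrays in the fit. On the 6 day arrays alone, limma gave 560 probe sets with pairing by clock time and 490 without it, both under 698. The count of 1 became 9 without either 4 h array and 0 without either array of the 8 h or the 12 h pair, and it was 4, of which 2 higher in LD, after a further quantile normalization. Of 10843 genes, 1300 (12.0%) were higher in LD in all 3 pairs and 1208 (11.1%) were higher in DD in all 3. A difference of at least 1.5-fold in every pair was found for 33 genes (0.304%), 8 of them higher in LD (0.0738%) and 25 higher in DD (0.231%). Without a 4 h array the remaining 2 pairs gave 156 such genes, without an 8 h array 88 and without a 12 h array 75. The members of this set of 33 were picked by their differences, so their values are a description, and the adjusted p is the test.

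The 8 h pair bore on the set because it can be left out of the choice. Among genes at least 1.5-fold higher in LD in both the 4 h and 12 h pairs, 14 of 17 (82.4%) had the same sign at 8 h, against 52.4% of all genes, and 8 (47.1%) also reached 1.5-fold, against 0.544% of all genes. Among the 71 genes higher in DD in both pairs, 60 (84.5%) had the same sign at 8 h, against 47.5% of all genes, and 25 (35.2%) reached 1.5-fold, against 2.99%. The 17 and 71 genes were picked for large differences, so the share of all genes reaching 1.5-fold is a low baseline for them. Genes of one tissue can also move together on the same 2 arrays, so these shares do not count independent checks. The 3 pairs otherwise had little in common. Over all 10843 genes, the differences of the 4 h and 8 h pairs correlated at 0.10, those of the 8 h and 12 h pairs at 0.29 and those of the 4 h and 12 h pairs at −0.23. These are correlations across genes, which share arrays and are not independent. The SD of the differences was 0.34, 0.27 and 0.45 in the 4, 8 and 12 h pairs and 0.20 to 0.23 in the night pairs. Just inside the 1.5-fold limit were maf-S with a smallest pair difference of 0.59 and CG17996 with 0.60, and just outside were alrm with 0.58, Lsd-1 with 0.58 and ND-15 with 0.57.

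**Figure D2:**
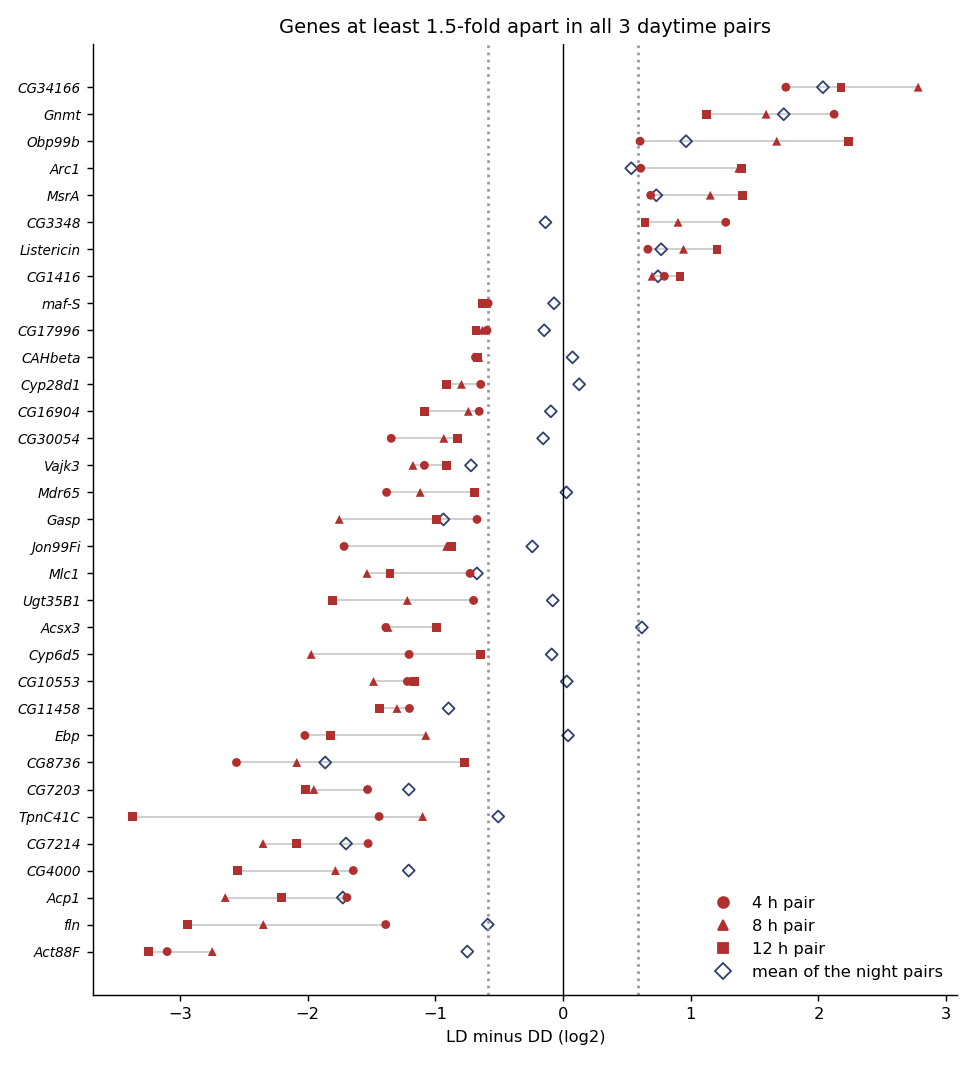
LD minus DD (log2) of the 33 genes at least 1.5-fold apart in all 3 daytime pairs. Filled symbols are the 4, 8 and 12 h pairs, the open diamond is the mean of the 3 night pairs and dotted lines mark 1.5-fold; 8 genes lie on the right and 25 on the left, from CG34166 (2.23) to Act88F (−3.03).

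CG34166 had the largest excess in LD. It read 11.17, 10.80 and 10.79 at ZT4, ZT8 and ZT12, against 9.42, 8.02 and 8.61 at CT4, CT8 and CT12. The groups did not overlap, and the mean difference was 2.23 ± 0.21 (SE), or 4.71-fold, with 2.78 at 8 h. The adjusted p from limma was 0.0591, so the difference did not pass the threshold. The files give no function for this gene.

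Genes of methionine metabolism were among the others higher in LD. Gnmt, encoding glycine N-methyltransferase, which uses up S-adenosylmethionine, read 8.13, 6.83 and 6.55 in LD, against 6.01, 5.24 and 5.43 in DD. Every LD value lay above every DD value, with a difference of 1.61 ± 0.20, a value of 1.59 at 8 h and an adjusted p of 0.0833 in limma. MsrA, encoding methionine sulfoxide reductase A, which repairs oxidised methionine in proteins, read 6.06, 6.77 and 6.49 in LD, against 5.38, 5.61 and 5.08 in DD. It did not overlap either, with a difference of 1.08 ± 0.15, 1.15 at 8 h and an adjusted p of 0.125. Of the 11 measured genes of methionine and glycine metabolism, 4 were higher in LD in all 3 pairs, against 12.0% of all genes. None was higher in DD in all 3, and none passed the test. The 4 were Gnmt and MsrA, already picked by size, and 2 with a pair near 0. These were Sardh, at 0.04 in the 12 h pair, and CG4199, at 0.02 in the 4 h pair. A dimmer CG4199 probe set had pairs of mixed sign. The median of the list was 0.27, with 0.02, 0.24 and 0.69 in the 4, 8 and 12 h pairs, against 0.01 for all genes. Ahcy, whose enzyme removes S-adenosylhomocysteine, read 7.98, 8.78 and 8.82 in LD and 8.11, 8.13 and 7.19 in DD, so that its 4 h pair went the other way. Sam-S, encoding S-adenosylmethionine synthetase, differed by 0.10 ± 0.22 with its 3 pairs of mixed sign.

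Among the genes higher in LD were also a fat body marker and an antibacterial peptide gene. Obp99b, an odorant-binding protein gene that is also a fat body marker, read 7.65, 8.21 and 8.47 in LD, against 7.04, 6.54 and 6.23 in DD. Its groups did not overlap, and the difference was 1.504 ± 0.273, with 1.67 at 8 h and an adjusted p of 0.282. Listericin, which encodes an antibacterial peptide, read 9.06, 8.95 and 9.06 in LD, against 8.40, 8.01 and 7.86 in DD. That is a difference of 0.94 ± 0.13 without overlap, with 0.94 at 8 h and an adjusted p of 0.138. Of the 12 fat body markers, 10 had a higher mean in LD, against 5713 of all 10843 genes. In all 3 pairs 4 of them were higher in LD, against 12.0% of all genes. The list median was 0.40, with 0.15, 0.365 and 0.996 in the 4, 8 and 12 h pairs, the last with CT12 in it. Transcripts of the yolk proteins, Yp1, Yp2 and Yp3, differed by 0.39 ± 0.24, 0.60 ± 0.20 and 0.41 ± 0.20, and their 12 h pairs, with CT12 in them, were the widest at 1.07 to 1.27. Since heads were taken in bulk, fewer cells of a type and less RNA per cell cannot be told apart, for fat body here and for muscle below.

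Lipid and sugar metabolism leaned the same way with smaller differences. Lsd-1, encoding perilipin 1 of lipid droplets, read 8.201, 8.55 and 8.64 in LD, against 7.39, 7.97 and 7.77 in DD. It did not overlap and differed by 0.75 ± 0.09, with 0.58 at 8 h and an adjusted p of 0.0833. Of 34 genes of lipid and carbohydrate metabolism, 27 had a higher mean in LD, against 5713 of all 10843 genes. In all 3 pairs 9 were higher in LD, against 12.0% of all genes, and 1, mdy, was higher in DD, against 11.1%. The median was 0.19, with 0.07, 0.16 and 0.275 in the 4, 8 and 12 h pairs, and none passed the test. The maltase gene Mal-A1 read 6.499, 6.63 and 6.87 in LD, against 6.30, 6.01 and 6.61 in DD, a difference of 0.36 ± 0.10. Npc2g, of the family of sterol-binding NPC2 proteins, lay between 10.82 and 11.05 in LD, against 10.31 to 10.49 in DD. This gives 0.53 ± 0.08 without overlap, 0.51 at 8 h and an adjusted p of 0.190. Miox, encoding myo-inositol oxygenase, read 7.68, 7.34 and 7.63 in LD, against 7.05, 6.61 and 7.13 in DD, a difference of 0.62 ± 0.11 with 0.72 at 8 h and an adjusted p of 0.282. With the mean of the muscle markers as a covariate, Miox turned to −0.076.

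The other 3 genes at least 1.5-fold higher in LD had different roles. Arc1, whose protein forms capsids that carry RNA at synapses, read 5.998, 7.75 and 7.14 in LD, against 5.39, 6.37 and 5.75 in DD. Its hours varied together on both days, the groups overlapped, and the difference was 1.13 ± 0.21 with 1.38 at 8 h and an adjusted p of 0.282. CG3348 read 7.45, 7.85 and 8.15 in LD, against 6.17, 6.95 and 7.505 in DD, with a difference of 0.94 ± 0.13, 0.90 at 8 h and an adjusted p of 0.166. CG1416, known also as Aha1, an activator of the chaperone Hsp90, read 5.70, 4.99 and 5.20 in LD, against 4.90, 4.29 and 4.28 in DD. It had the narrowest error of the 8, at 0.80 ± 0.08 with 0.70 at 8 h, and its adjusted p was 0.0634.

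**Figure D3:**
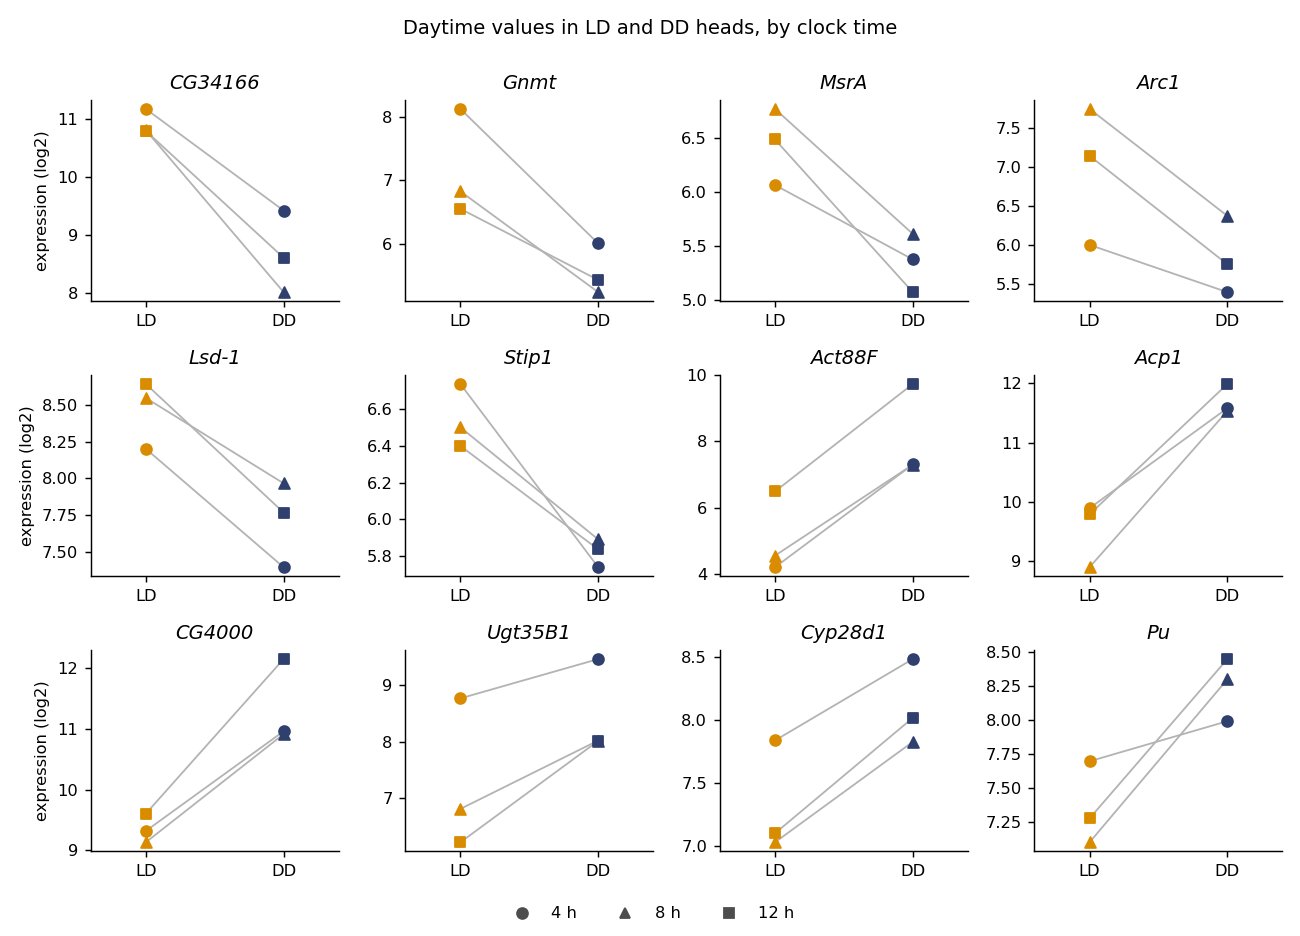
Expression (log2) of 12 genes on the 6 daytime arrays, LD left of DD, with lines joining arrays of the same clock time. The first 6 panels are genes higher in LD in all 3 pairs and the last 6 are genes higher in DD in all 3, among them Act88F (4.20 to 6.49 in LD, 7.30 to 9.73 in DD).

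Other chaperone genes lay on the same side as CG1416. The list of 15 subunits of the CCT chaperonin, which folds actin and tubulin, and cochaperones of Hsp90 was drawn up after its members' values had been seen, so its counts are a description. In it 9 genes were higher in LD in all 3 pairs and 2, p23 and STUB1, were higher in DD in all 3; 8 did not overlap with LD higher, against 4.8% of all genes. The median difference was 0.49, with 0.27, 0.36 and 0.56 in the 4, 8 and 12 h pairs, and none passed the test. CCT1 read 7.42, 7.61 and 7.77 in LD, against 6.93, 7.13 and 7.01 in DD, a difference of 0.58 ± 0.10 with an adjusted p of 0.271. CCT8 differed by 0.66 ± 0.16 and CCT5 by 0.50 ± 0.15. Stip1, the cochaperone that joins Hsp70 and Hsp90, lay between 6.40 and 6.74 in LD, against 5.74 to 5.89 in DD, which gives 0.72 ± 0.13 and an adjusted p of 0.282.

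Of the 10 measured heat shock genes, 9 had a higher mean in LD and 5 were higher in all 3 pairs, with a median of 0.34 and none past the test. DnaJ-1, the Hsp40 cochaperone of Hsp70, read 6.86, 8.46 and 8.29 in LD, against 6.77, 7.72 and 6.49 in DD, with pair differences from 0.08 to 1.80. The heat shock factor gene Hsf differed by 0.33 ± 0.11 and the mitochondrial Hsc70-5 by 0.35 ± 0.11. Hsc70-3, the chaperone of the endoplasmic reticulum, was the exception, higher in DD in all 3 pairs with a difference of −0.19 ± 0.08.

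Flight muscle genes formed the extreme of the DD side. Act88F read 4.20, 4.55 and 6.49 at ZT4, ZT8 and ZT12, against 7.30, 7.30 and 9.73 at CT4, CT8 and CT12. Every LD value lay below every DD value, and the difference of −3.03 ± 0.20, or 8.18-fold, had an adjusted p of 0.0134. The call was lost at much the same size of difference when arrays were left out: −2.75 with an adjusted p of 0.18 without ZT4 and CT12, −3.17 with 0.096 without the 8 h arrays and −2.92 with 0.0578 without the 12 h arrays. Without the 4 h arrays it stood, at −2.997 with 0.0467. Without pairing by clock time the adjusted p in limma was 0.575 on all 12 arrays and 0.999 on the 6 day arrays alone. With pairing, the 6 day arrays alone kept the call, at an adjusted p of 0.0267. With the mean of the muscle markers, Act88F among them, as a covariate the difference was −2.54 with an adjusted p of 0.999, and with that of the male tract markers it was −2.74 with 0.18.

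Genes of the thick filament, of myosin and of the calcium switch also differed by at least 1.5-fold in all 3 pairs. Flightin (fln), a thick filament protein of flight muscle, read 3.29, 3.43 and 5.02 in LD, against 4.68, 5.77 and 7.97 in DD, a difference of −2.23 ± 0.43 with −2.35 at 8 h and an adjusted p of 0.311. TpnC41C, a troponin C, read 5.59, 4.98 and 5.18 in LD, against 7.03, 6.08 and 8.56 in DD. It differed by −1.97 ± 0.40, with −1.10 at 8 h and an adjusted p of 0.349. The myosin light chain gene Mlc1 read 8.46, 8.02 and 8.52 in LD, against 9.19, 9.55 and 9.88 in DD, a difference of −1.21 ± 0.33 with −1.54 at 8 h. With the mean of the muscle markers as a covariate, TpnC41C turned to 0.255 and Mlc1 to 1.787; both are among those markers. Of the list, 4 members did not overlap with DD higher, against 3.49% of all genes, and 10 had an unadjusted p under 0.05 with DD higher, against 4.3% of all genes. The list was uneven: 18 of 21 had a lower mean in LD and 7 were lower in all 3 pairs, but the long sarcomere proteins sls and Zasp52 differed by 0.02 ± 0.09 and 0.05 ± 0.10. The median was −0.59, with −0.21, −0.81 and −0.36 in the 3 pairs.

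Markers of midgut and male tract accompanied some genes of the DD side. Jon99Fi, a digestive serine protease gene, read 5.85, 4.34 and 7.81 in LD, against 7.57, 5.25 and 8.68 in DD, a difference of −1.17 ± 0.26 with −0.91 at 8 h. Of the 3 daytime hours it was lowest at 8 h on both days, and the groups overlapped. Of the 27 midgut markers, 7 were lower in LD in all 3 pairs and none higher in all 3, with a list median of −0.14 and pair medians of −0.65, −0.04 and 0.01 at 4, 8 and 12 h, so that the lean lay in the pair with ZT4. Ebp, which encodes a protein of the male ejaculatory bulb, read 6.44, 6.22 and 7.79 in LD, against 8.46, 7.30 and 9.61 in DD. Its difference was −1.64 ± 0.18 with −1.08 at 8 h and an adjusted p of 0.0675. Of the 23 markers of the male accessory gland and testis, 7 were lower in LD in all 3 pairs and none higher in all 3, with a median of −0.31. The pair medians of that list were −0.48, 0.14 and −0.69 at 4, 8 and 12 h, and the 8 h pair thus went the other way. Acp95EF read 6.68, 5.87 and 6.30 in LD, against 9.36, 6.28 and 10.04 in DD, so its difference lay mostly in the 4 h and 12 h pairs. Acp26Aa stayed near the bottom of the scale, at 2.38 to 2.44 in LD and 2.60 to 3.69 in DD. When members of the muscle, midgut and male tract lists were left out, 28 of the 33 genes remained, 8 higher in LD and 20 higher in DD. The male tract list had 0 members among the 33, so leaving it out changed nothing, and Ebp, which is in none of the lists, stayed among the 28.

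Cuticle genes were also among those lowest in LD. Acp1, an adult cuticle protein gene, read 9.89, 8.89 and 9.78 in LD, against 11.58, 11.53 and 11.99 in DD. The groups did not overlap, and the difference of −2.18 ± 0.25, or 4.54-fold, had −2.65 at 8 h and an adjusted p of 0.0675. Next to it in gene order lie CG7214, 1 gene away, and CG7203, 3 genes away. CG7214 read 8.43, 7.66 and 8.75 in LD, against 9.96, 10.01 and 10.84 in DD, and CG7203 read 10.96, 10.78 and 11.15 in LD, against 12.49, 12.74 and 13.17 in DD. Their differences were −1.99 ± 0.25 and −1.83 ± 0.21, with −2.35 and −1.95 at 8 h and adjusted p-values of 0.0833 and 0.0675. All 3 neighbours were therefore lower in LD by a similar amount, without overlap.

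Chitin-related genes outside that neighbourhood showed it in part. Gasp, a chitin-binding protein gene, read 4.71, 4.19 and 4.78 in LD, against 5.39, 5.94 and 5.77 in DD, a difference of −1.14 ± 0.21 with −1.75 at 8 h. Vajk3, a cuticle gene, read 4.83, 4.95 and 4.997 in LD, against 5.92, 6.12 and 5.91 in DD. Its SDs were 0.09 in LD and 0.12 in DD (n = 3 hours each), and it differed by −1.06 ± 0.19 with −1.18 at 8 h and an adjusted p of 0.282. With the mean of the muscle markers as a covariate, Gasp turned to 0.116 and Vajk3 to 0.381. Over all 118 cuticle and chitin genes the median was −0.01; 24 were lower in LD in all 3 pairs and 12 were higher, none past the test. Differences of single members ranged from −2.18 to 0.32.

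Several other DD genes have no function in the files. CG4000 read 9.32, 9.13 and 9.60 in LD, against 10.96, 10.91 and 12.15 in DD, a difference of −1.99 ± 0.19, or 3.98-fold, with −1.78 at 8 h and an adjusted p of 0.0591. CG11458 read 10.19, 9.07 and 9.86 in LD, against 11.39, 10.37 and 11.30 in DD, a difference of −1.31 ± 0.16 with −1.30 at 8 h and an adjusted p of 0.0773. CG8736 read 6.83, 7.15 and 7.43 in LD, against 9.39, 9.24 and 8.195 in DD, and differed by −1.80 ± 0.40 with −2.09 at 8 h. None of these 3 genes overlapped between the groups. CG30054 read 4.31, 3.69 and 3.53 in LD, against 5.65, 4.63 and 4.35 in DD, a difference of −1.03 ± 0.24 with −0.93 at 8 h. CG16904 read 6.01, 5.85 and 6.28 in LD, against 6.67, 6.59 and 7.36 in DD, a difference of −0.83 ± 0.13 with −0.74 at 8 h. CG17996 read 5.78, 4.99 and 5.07 in LD, against 6.38, 5.62 and 5.75 in DD, a difference of −0.64 ± 0.11 with −0.63 at 8 h. Of these last 3, the groups of CG17996 overlapped and those of the other two did not.

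Genes that process foreign compounds and lipids were among the lower ones in LD. Cyp28d1, a cytochrome P450, read 7.84, 7.03 and 7.10 in LD, against 8.48, 7.82 and 8.01 in DD. The groups touched, since ZT4 exceeded CT8, but each pair differed by −0.64 to −0.92, for a mean of −0.79 ± 0.09 with −0.80 at 8 h and an adjusted p of 0.0675. Cyp6d5 read 8.10, 6.94 and 7.504 in LD, against 9.31, 8.92 and 8.15 in DD, a difference of −1.28 ± 0.22 with −1.97 at 8 h and an adjusted p of 0.271. Over 80 P450 genes, 19 were lower in LD in all 3 pairs, 6 were higher, the median was −0.05, and none passed. Ugt35B1, a glucuronosyl transferase, read 8.77, 6.80 and 6.20 in LD, against 9.47, 8.02 and 8.01 in DD, a difference of −1.24 ± 0.29 with −1.22 at 8 h. A dimmer probe set named for the same gene differed by −0.01 ± 0.22, so the 2 probe sets disagree. Over 67 glutathione and glucuronosyl transferases, 11 were lower in LD in all 3 pairs and 9 higher, with a median of −0.03.

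Mdr65, an ABC transporter of the glia that seal the blood-brain barrier, read 4.98, 4.76 and 4.76 in LD, against 6.36, 5.88 and 5.46 in DD. It did not overlap and differed by −1.06 ± 0.16, with −1.12 at 8 h and an adjusted p of 0.193. The acyl-CoA synthetase gene Acsx3 read 5.73, 4.31 and 4.04 in LD, against 7.12, 5.68 and 5.03 in DD, a difference of −1.25 ± 0.24 with −1.37 at 8 h. The carbonic anhydrase gene CAHbeta had nearly equal pair differences of −0.69, −0.66 and −0.67. The small Maf gene maf-S, whose protein pairs with the stress factor CncC, differed by −0.60 ± 0.23 with −0.60 at 8 h, and turned to 0.386 with the mean of the muscle markers as a covariate.

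The visual cascade showed no shared direction. Of 16 phototransduction genes, 1, Arr2, was higher in LD in all 3 pairs and none was lower in all 3, with a median of −0.03. Arr2 differed by 0.25 ± 0.09. Gbeta76C, the visual G protein beta subunit, read 8.01, 9.56 and 9.34 in LD, against 9.60, 9.68 and 7.86 in DD, and its pair differences of −1.59, −0.12 and 1.48 changed sign. Its low values were those of ZT4 and CT12, and Ggamma30A and Arr1 were lowest on the same 2 arrays, which also had the strongest 3′ excess.

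Pigment and retinoid genes leaned towards DD. Of 14 members, 6 were lower in LD in all 3 pairs and none was higher in all 3, with a list median of −0.28 and −0.24, −0.30 and −0.13 in the 3 pairs; none passed the test. Pu, which encodes GTP cyclohydrolase, the entry to pteridine synthesis, read 7.69, 7.10 and 7.27 in LD, against 7.99, 8.30 and 8.45 in DD. Its groups did not overlap, with a difference of −0.89 ± 0.17. The pteridine gene se read 6.27, 5.39 and 6.07 in LD, against 7.62, 6.89 and 6.23 in DD, a difference of −1.004 ± 0.467, with CT12 close to the LD values. The photoreceptor dehydrogenase gene Pdh differed by −0.76 ± 0.30, and ry, encoding xanthine dehydrogenase, by −0.31 ± 0.10. In the handling of histamine and other transmitters, Vmat, a vesicular monoamine transporter, read 7.26, 7.23 and 6.92 in LD, against 7.64, 7.84 and 7.84 in DD, a difference of −0.64 ± 0.12. A dimmer Vmat probe set differed by −0.004 ± 0.080. In the same list of 7, the beta-alanine transporter gene Balat was also lower in LD in all 3 pairs and the carcinine transporter gene CarT was higher, at 0.47 ± 0.16, with 0.01 ± 0.09 on its dimmer probe set.

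No clock gene passed the test at these hours. Of 16 measured members, tim and slmb were higher in LD in all 3 pairs, cwo was higher in DD in all 3, and none passed the test; the median was 0.05. The tim transcript, whose protein light removes, read 5.16, 5.05 and 7.11 in LD, against 4.39, 4.83 and 5.64 in DD. Of the 3 daytime hours it was highest at 12 h on both days, and the difference of 0.82 ± 0.31 had an adjusted p of 0.609. A second, dimmer probe set of tim differed by 0.54 ± 0.26 with the same signs, and another lay near the bottom of the scale and differed by −0.08 ± 0.08. The ubiquitin ligase gene slmb, which acts on PER and TIM, read 3.98, 4.16 and 4.29 in LD, against 3.44, 3.94 and 3.92 in DD, a difference of 0.38 ± 0.10. The repressor gene cwo differed by −0.20 ± 0.10, and a dimmer cwo probe set differed by −0.215 ± 0.263 with its 3 pairs of mixed sign. The partner gene per differed by −0.02 ± 0.11, vri by 0.08 ± 0.27, Pdp1 by −0.004 ± 0.114, Clk by −0.08 ± 0.26 and cyc by 0.10 ± 0.10. The photoreceptor gene cry read 7.54, 8.46 and 8.21 in LD, against 8.03, 8.17 and 7.16 in DD, and its 3 pairs had mixed signs.

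Among 15 reported clock output genes, 3 were higher in LD and 4 lower in LD in all 3 pairs. CG10553 read 5.85, 4.63 and 5.43 in LD, against 7.07, 6.11 and 6.59 in DD, a difference of −1.29 ± 0.19 without overlap, with −1.49 at 8 h and an adjusted p of 0.168. Of the 13 genes regulated by neuronal activity, 1 was higher in LD in all 3 pairs, and Hr38 and sr, which are used as activity markers in flies, differed by −0.07 ± 0.10 and 0.04 ± 0.15. Arc1 was not in that list.

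Genes of mitochondrial respiration had small differences in one direction. Of 70 members, 58 had a lower mean in LD, 19 were lower in LD in all 3 pairs and none was higher in all 3. The median was −0.16, with −0.30, −0.17 and −0.04 in the 4, 8 and 12 h pairs, and none passed the test. ATPsynB, a subunit of ATP synthase, read 9.71, 9.99 and 10.25 in LD, against 10.29, 10.46 and 11.32 in DD, a difference of −0.71 ± 0.13 without overlap. ND-B17.2, of complex I, differed by −0.89 ± 0.24. The list median at night was −0.21. On the day arrays the muscle marker means above were lower in LD too, and whether the shifts are linked was not tested.

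**Figure D4:**
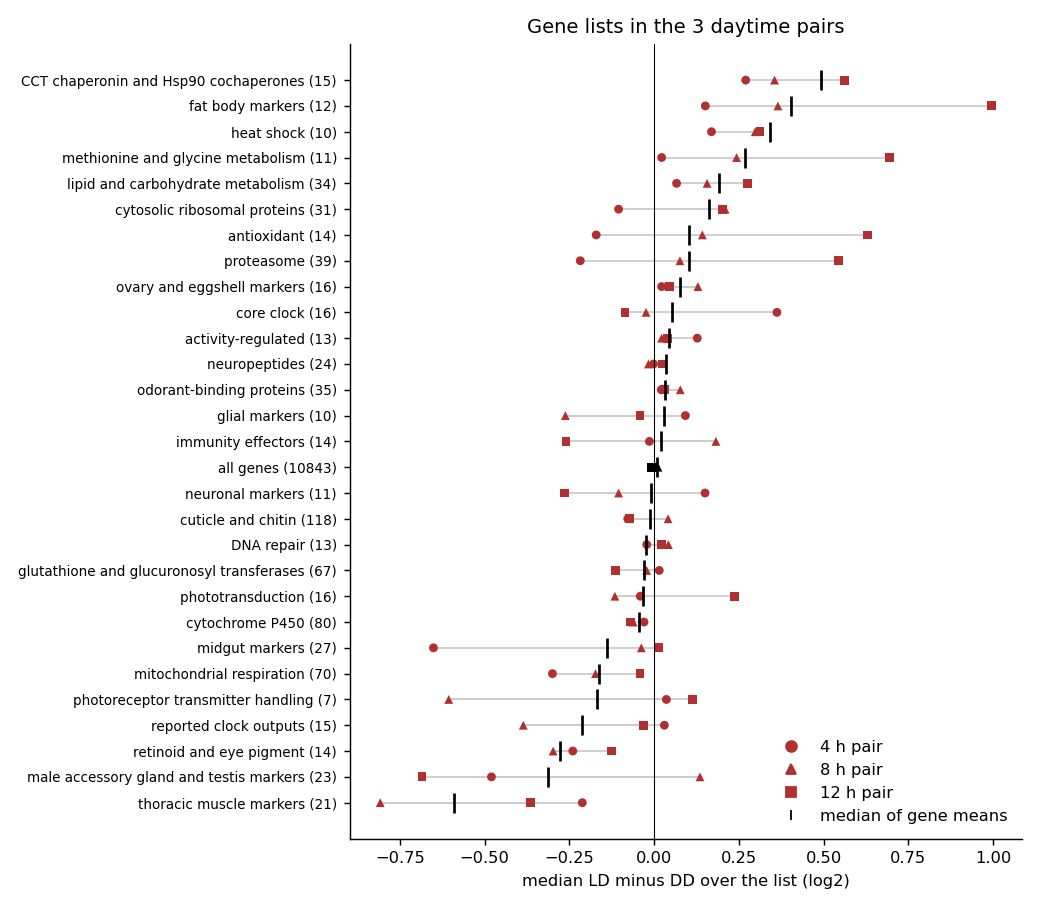
Median LD minus DD (log2) of each gene list in the 4, 8 and 12 h pairs (symbols) and of the gene means over the 3 pairs (bars), with list sizes in parentheses. The chaperonin list (0.49) and fat body markers (0.40) lie highest and the muscle markers (−0.59) lowest, with all genes at 0.01.

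The remaining lists lay close to the median of all genes or had pairs of opposite sign. Cytosolic ribosomal proteins had a median of 0.16 over 31 genes and the proteasome 0.10 over 39, and both medians were below 0 in the 4 h pair. Antioxidant genes had a median of 0.10 over 14, with GstD1 at 0.53 ± 0.13. Immunity effectors had 0.02 over 14, with 3 higher in LD in all 3 pairs and 4 lower in all 3. DptB, a diptericin, was higher in LD by 0.58 ± 0.14 in the mean. The antimicrobial peptide gene Drs went the other way, lower in LD in all 3 pairs at −0.34 ± 0.11. The digestive lysozyme genes LysB, LysD and LysE were lower by −0.85 ± 0.25, −0.78 ± 0.27 and −0.74 ± 0.24. Their sequences are close enough that probe sets may not separate them. Medians were 0.08 for 16 ovary and eggshell markers, 0.03 for 24 neuropeptides, 0.03 for 35 odorant-binding proteins, 0.03 for 10 glial markers, −0.01 for 11 neuronal markers and −0.02 for 13 DNA repair genes. The neuropeptide-like gene Nplp3 was the widest of its list at −0.93 ± 0.24. Cp15, an eggshell gene, read 9.76 at ZT12 and between 5.71 and 6.03 on the other 5 arrays.

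The night arrays showed which of these differences were also there when both days were dark. Of the 8 genes higher in LD by day, 7 (87.5%) were higher in LD in all 3 night pairs too, where 16.3% of all genes had 3 night pairs with the sign of their daytime mean. Of the 25 genes lower in LD by day, 10 (40.0%) were lower in all 3 night pairs. The median ratio of the night difference to the day difference was 0.75 for the 8 genes and 0.23 for the 25. CG34166 differed by 2.03 at night and Gnmt by 1.73, close to their daytime values. The neighbours Acp1 and CG7214 differed by −1.73 and −1.70 at night, and CG8736 by −1.86.

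Other genes had smaller differences at night. Act88F differed by −0.75 at night, fln by −0.59 and TpnC41C by −0.51. The night differences were 0.03 for CG10553, −0.09 for Cyp6d5, 0.13 for Cyp28d1, 0.03 for Mdr65, 0.04 for Ebp and −0.08 for Ugt35B1. The test of the day difference minus the night difference in limma gave 0 called probe sets of 13966 (0.0%), with 535 at an unadjusted p under 0.05 and a smallest adjusted p of 0.844. No gene was therefore shown to differ between LD and DD by day more than by night. The smallest p-values of that test belonged to Act88F, at −2.28 ± 0.28, and Cyp28d1, at −0.91 ± 0.12.

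**Figure D5:**
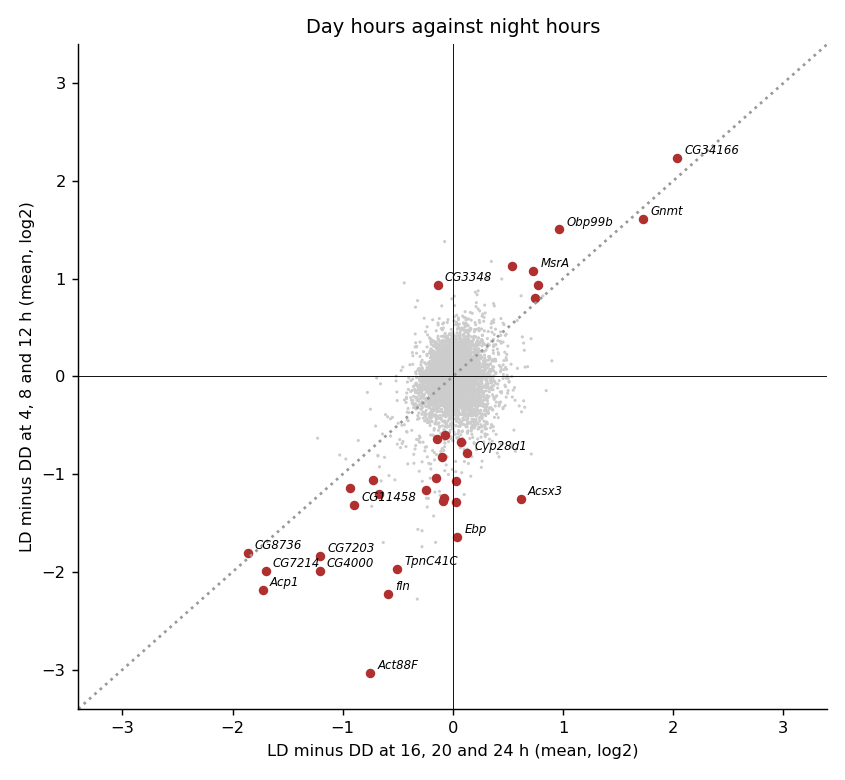
Mean LD minus DD (log2) at 4, 8 and 12 h (vertical axis) against the mean at 16, 20 and 24 h (horizontal axis), with 1 point per gene; red points are the 33 genes and the dotted line marks equal differences. CG34166, Gnmt and CG8736 lie near the line, and Act88F, Ebp and Acsx3 lie far from it.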

How the data were processed

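RNA of pooled y w heads was hybridized to 1 Affymetrix array per time point. The authors deposited log2 values from RMA, per the submitters' processing notes, and 1 value stands for each probe set; neither the version nor the arrays normalized together is given in the sources used here. RMA gives arrays a common distribution, so a shift of most transcripts would not show. The array medians lay between 4.93 and 4.96 and no further normalization was applied.

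Groups and hours came from the titles. Of 14010 probe sets, 44 controls were left out. Of the others, 12442 had 1 gene, 327 several and 1197 none, and 12393 matched RefSeq; those without a single gene were tested and left unnamed. A gene was represented by its probe set of highest mean, giving 10843 genes.

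The fit used limma 3.58.1 in R 4.3.3 on 12 arrays, with clock time as a factor and an LD minus DD term each for day and night hours (4 residual degrees of freedom), and Benjamini-Hochberg adjustment at 0.05. On simulated data for LD minus DD at daytime hours, with 200 of 13966 probe sets changed, it recovered 92% of changes of 1 and 100% of changes of 2 (log2), with 7 false calls. The simulated noise was independent between arrays and followed the fitted variances, without the shared departures of ZT4 and CT12. These shares therefore do not measure the power on the real arrays, where CG34166 at 2.23 and Acp1 at −2.18 were not called. Lists (28) are described by counts and medians. Named genes were the called ones, the 10 of smallest p, the 15 in each direction with the largest smallest pair difference, up to 4 per list by the same measure, every clock gene and the 10 of smallest p for day minus night. The other members of the set of 33 and the further list members and markers that are named were chosen after their values were seen. Members and lists were chosen with earlier results of these data known. Nothing in the labels states separate cultures beyond the time of collection, so p-values measure the spread between these samples. Alternatives were other normalizations, filters, covariates, left-out arrays, array weights and no pairing.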

Additional observations from a re-analysis of the deposited data

Results flagged for a closer look

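In 293 of 10843 genes (2.7%) every daytime pair differed one way and every night pair the opposite way. The 6 given here had been named for a small unadjusted p in the test of the day difference minus the night difference. That choice favours opposite signs by day and night, so the pattern in these 6 is a description and not a separate result. The test of the day difference minus the night difference did not pass the threshold for any of them (adjusted p from 0.844 to 0.998 in limma). Acsx3, an acyl-CoA synthetase gene, had −1.87 for day minus night, with −1.25 by day and 0.62 by night. The polyubiquitin gene Ubi-p63E had −1.51, with −0.79 by day and 0.71 by night. Gk1, encoding a glycerol kinase, had −1.24, with −0.70 by day and 0.55 by night. Cyp28d1 had −0.91, with −0.79 by day and 0.13 by night. CG46339 had −0.78, with −0.39 by day and 0.40 by night. CG3348 was the one in the other direction, with 1.08 for day minus night, 0.94 by day and −0.14 by night.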

How the results depend on the processing

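The count of 1 called probe set was 1 after centring arrays on their medians, with probe sets of mean at least 5, and with a trended, robust variance. It was 4 after quantile normalization again (2 higher in LD), 4 with the 3′ minus 5′ control signal as a covariate (1 higher in LD), 75 with array weights (19 higher in LD) and 46 with the midgut marker score as a covariate (10 higher in LD). It was 0 without ZT4 and CT12 (smallest adjusted p 0.117), 0 with the muscle marker score as a covariate (0.999) and 0 with the male tract score, an alternative chosen after seeing the data (0.18). Leaving out 1 array gave 0 to 9. Clock time as a replicate block follows from the rule of the comparison: without the block 1 was called, CG7203 at an adjusted p of 0.0393, and Act88F had 0.575; on the 6 day arrays 1 was called with the block and 0 without it (smallest adjusted p 0.196). Same-hour arrays deviated together at 8 h (r = 0.48) and not at 4 h (0.02) or 12 h (−0.29). Between arrays of different hours, r ran from −0.48 (ZT4 with CT8) to 0.42 (ZT4 with CT12, the arrays with the strongest 3′ excess). Pairing by clock time thus matched a shared deviation only at 8 h. The count for day minus night was 0 under every alternative that was run for it.

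The 33 genes became 127 at a lower fold limit, 12 at 2-fold and 75 to 156 when 1 array and with it its pair was left out. The 8 h pair alone, without ZT4 and CT12, gave 383. Centring, quantile normalization, the filter, averaging probe sets and leaving out muscle, midgut and male tract markers (chosen after seeing the data) gave 28 to 34.

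With the muscle marker score as a covariate 8 differences turned sign: Miox −0.076, TpnC41C 0.255, Vajk3 0.381, Mlc1 1.787, Gasp 0.116, CG7997 0.512, CG46339 0.392 and maf-S 0.386. That score separates LD from DD by day and holds TpnC41C and Mlc1 themselves; the cause for the other genes was not tested. Of the remaining values for single genes, 2281 kept direction and side of the threshold or, where untested, stayed within the spread; 52 passed it, 9 lost it and 108 untested ones moved beyond the spread.

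The number of arrays limits precision: 3 pairs of hours and 4 residual degrees of freedom, with no repeat of any hour.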
